A study of Bos taurus with 6 samples.

Results

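Nearly all of the genes described here serve to build ribosomes. They are the subunits of RNA polymerase I and RNA polymerase III and the nucleolar factors that process ribosomal RNA and assemble the ribosomal subunits. Rows were taken by name alone, although the set was chosen with earlier results of these data known. Every row whose symbol is UTP or RRP followed by a digit, or starts with NOP, NOL, POLR1 or POLR3, was taken, together with the rows of 12 exact symbols, of which 10 were found (BOP1, BYSL, DKC1, FBL, GAR1, GNL3, MYBBP1A, NAT10, PES1 and WDR12). NCL and NPM1, the remaining pair of exact symbols, were not analyzed here. This gave 52 rows of the 18014 in the table, under 50 symbols, because POLR1A and BYSL have more than 1 row each. One row joins NOP14 with its neighbor MFSD10 and cannot be separated. Another 2 rows, in which NOP2 and POLR3K stand behind the symbols CHD4 and RHBDF1, were outside the name rule and were not used.

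Primary bovine vaginal epithelial cells (BVECs), from vaginal tissue of healthy cows, were grown to a confluent layer. Treated cells were incubated for 4 h with Lactobacillus strain SQ0048 at 1000000000 CFU/ml, and control cells with culture medium alone. RNA was then sequenced from 3 samples of each group. All samples share the same culture conditions, and the treated group is defined by 1 strain, 1 dose and 1 time. The study describes the samples of a group as biological replicates. The sources used here do not say how many donor animals or separate cultures they came from, and the p-values cover only the variation among these 6 samples.

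Ribosome production starts in the nucleolus. RNA polymerase I copies the ribosomal DNA repeats into a long precursor, while RNA polymerase III makes the smallest ribosomal RNA and the transfer RNAs. Small nucleolar ribonucleoproteins (snoRNPs) modify the precursor, the small subunit processome folds and cuts it, and separate sets of factors mature the small and the large subunit before export to the cytoplasm. In growing epithelial cells this is one of the most costly programs of gene expression, and MYC is its best known transcriptional driver.

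The values are FPKM, fragments per kilobase of exon scaled to the mapped fragments of the library, which are scaled by length so that levels can be set beside each other between genes. The FPKM of a library summed to between 343933 and 378772, and 1876 to 1992 features per library were listed at 0. The files hold no read counts, and the read numbers that the study gives are means of a group, so the counting error of single values was not computed. The epithelial keratins KRT8 and KRT18 stood at 1099 to 1616 FPKM in all libraries, and KRT7 and KRT19 at 900 to 1754 FPKM. Others on the epithelial list were lower, with KRT5 at 14.26 to 22.17 FPKM and CLDN4 at 0.99 to 5.53 FPKM. KRT14 did not exceed 0.51 FPKM and was not tested. Of 8 leukocyte markers found, only CD14, CD68 and AIF1 reached the mean of 0.5 FPKM needed for the test, and none was called. AIF1 was at 15.25 to 18.83 FPKM in medium and 18.85 to 23.72 FPKM with SQ0048, without overlap (limma adjusted p = 0.194). CD14 and CD68 did not exceed 2.1 FPKM in any library. The T cell marker CD3E was at 0.1 FPKM in 1 control library and at 0 in the others. Endothelial PECAM1 and smooth muscle MYH11 did not exceed 0.05 FPKM in any library, whereas TAGLN, a smooth muscle marker that other cells also express, was at 154 to 179 FPKM and was not called. Of 7 tested fibroblast markers, 3 rose and 1 fell, and the summed level of that list was 526.9 to 565 FPKM in medium and 540 to 568 FPKM with SQ0048, most of it VIM. COL3A1, also a fibroblast marker, was at 47.09 to 54.3 FPKM and was not called. Endothelial VWF, the 1 marker of that list tested, rose from a mean of 1.53 to 2.44 FPKM. Of 13 tested epithelial markers, 2 rose (KRT8 and KRT18) and 2 fell (TJP1 and GRHL2). The part of these markers in the results below was not tested. Since these are bulk samples, fewer cells of a type and less RNA per cell cannot be told apart.

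After incubation with SQ0048, 16 of the 52 rows were lower, 4 were higher and 32 were neither. A gene rose or fell here when its adjusted p was under 0.05 in limma, fitted on log2(FPKM + 0.1) over the 13144 features that averaged 0.5 FPKM or more. All 52 rows passed that filter. The 16 lower rows were 30.8% of the 52, against 15.8% lower among all features tested, and the 4 higher rows were 7.69%, against 8.59%. The lower rows were NOL8, UTP20, NOP58, POLR1C, POLR3B, RRP8, GAR1, POLR3G, NOL10, GNL3, NOL11, POLR1A, UTP18, NOL6, POLR3A and MYBBP1A. The higher rows were NOL3, NOP9, UTP4 and POLR1E.

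The changes were modest in size. Only NOL8 and UTP20 changed at least 2-fold at an unadjusted p under 0.05, both lower, which is 2 of 52 rows against 3.28% of all features. No row passed these thresholds in the higher direction, where 2.24% of all features did. The median log2 fold change over the 52 rows was -0.24, against -0.08 over all features tested. After rescaling to TPM the medians were -0.33 and -0.17, and with median-of-ratios size factors -0.16 and -0.01, so the members lay 0.16 below all features on the log2 scale in each case. The share of lower rows was 34.6% against 20.1% of all features with TPM, 23.1% against 12.5% with size factors, and 23.1% against 12.2% after quantile normalization. The higher rows then numbered 2 with TPM, 5 with size factors and 4 after quantile normalization. These were 3.85%, 9.62% and 7.69% of the members, against 5.74%, 11.6% and 10.2% of all features. The difference was smaller among features averaging 5 FPKM or more, which included 37 of the members. There 27.0% of the members were lower against 19.1% of all features, and 13.5% were higher against 12.2%. The medians were then -0.12 and -0.04.

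Leaving out 1 library lowered the number of calls among the members and among all features. Such a fit also holds fewer libraries, and the part of this in the lost calls was not tested. The members had 10 lower and 1 higher calls without control replicate 1, without control replicate 3 or without treated replicate 1. Then 8.77%, 9.18% and 8.46% of all features were lower, against 15.8% with all libraries, and 4.89%, 5.63% and 4.18% were higher, against 8.59%. NOL8, UTP20, NOP58, POLR1C, NOL10, NOL11 and NOL3 kept their calls under every alternative that tested them.

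**Figure D1:**
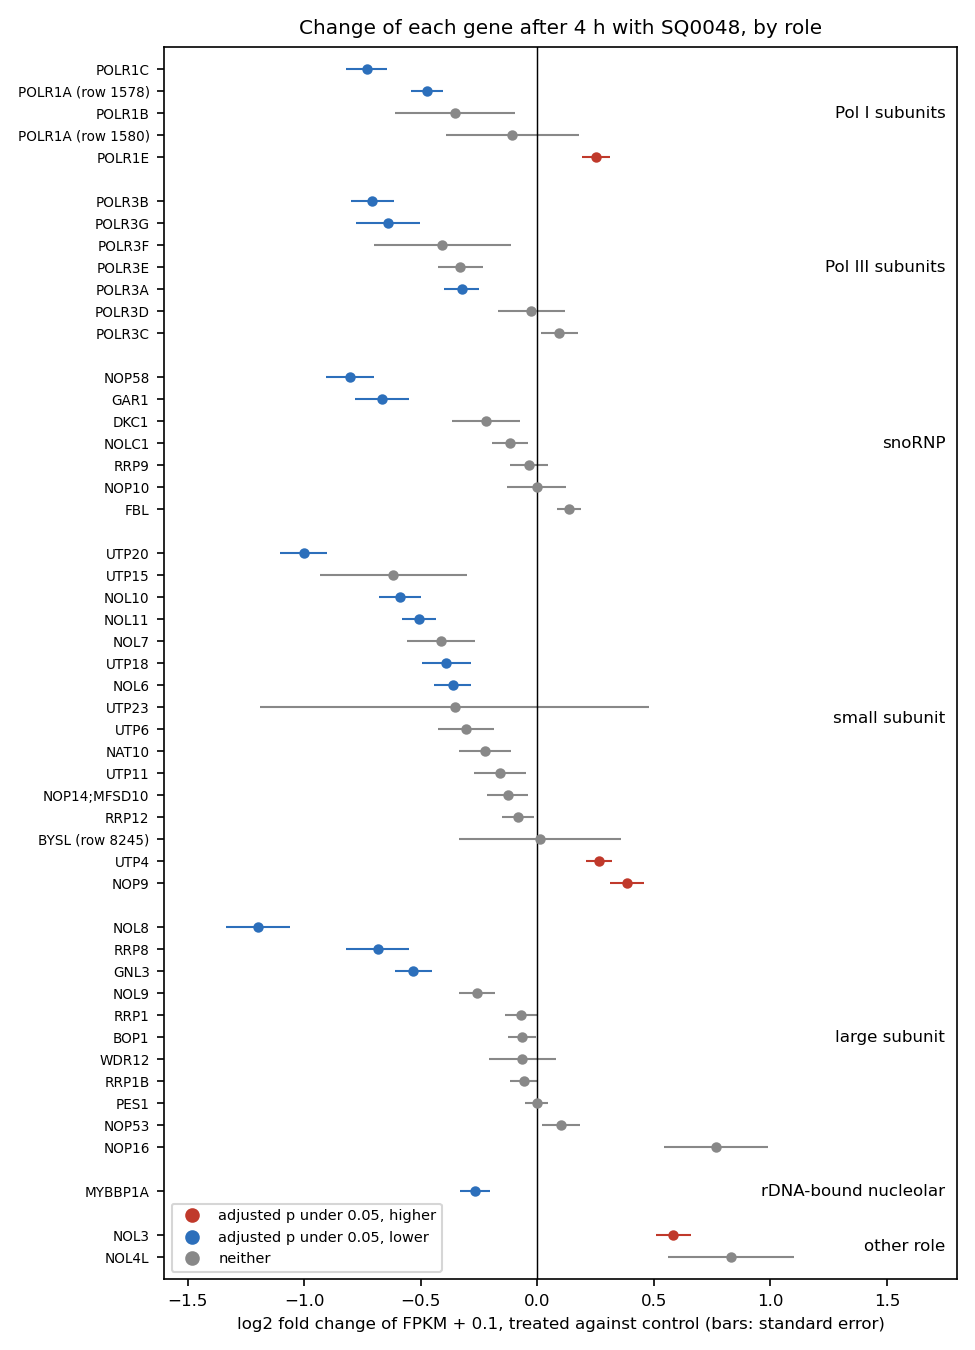
Log2 fold change of FPKM + 0.1 (x axis) of treated against control cells, for 49 of the 50 rows above 0 in every library, grouped by role (y axis). Points are limma estimates from 3 libraries a group, bars are standard errors, and colors mark the 16 lower and 4 higher rows, of which NOL8 lies farthest left at -1.20.

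Among RNA polymerase I genes, 2 rows fell and 1 rose, of 5 rows tested, with POLR1A having more than 1 row. These were 40% lower and 20% higher, against 15.8% and 8.59% of all features tested. POLR1C, a subunit that polymerases I and III share, stood at 16.94, 16.37 and 14.29 FPKM in medium and 9.82, 8.91 and 9.78 FPKM with SQ0048. All treated values were below all control values, with a log2 fold change of -0.73 (standard error, SE, 0.09, limma adjusted p = 0.0058). POLR1C overlaps XPO5 in the annotation. The methods of the paper name a stranded kit for the libraries and also another kit that is not named as stranded. Whether strand was used when reads were assigned to genes is not given in the sources, so values of such pairs may share reads. XPO5 went from 13.1 to 9.78 FPKM on average without passing the test (limma adjusted p = 0.130). The part of XPO5 reads in the values of POLR1C was not tested.

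POLR1A encodes the largest subunit, which forms the active center of polymerase I. Its main row was at 8.44, 9.13 and 9.34 FPKM in medium and 6.34, 6.36 and 6.58 FPKM with SQ0048. It fell by 0.47 on the log2 scale (SE 0.07, limma adjusted p = 0.0082), and the treated libraries were close together. A second row of POLR1A was at 0.63 to 1.31 FPKM in medium and 0.77 to 0.94 FPKM with SQ0048, and it did not pass the test (limma adjusted p = 0.816). The sum of both rows was 9.75, 9.76 and 10.26 FPKM in medium and 7.11, 7.19 and 7.52 FPKM with SQ0048.

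POLR1E, part of the subcomplex that stabilizes polymerase I on its template, went the other way. It stood at 12.68, 12.75 and 11.75 FPKM in medium and 15.01, 14.39 and 14.87 FPKM with SQ0048. The groups did not overlap, and the log2 fold change was 0.25 (SE 0.06, limma adjusted p = 0.0343). The call was lost without any 1 of the libraries, without control replicates 1, 2 or 3 (limma adjusted p = 0.0785, 0.0646 and 0.0785) or treated replicates 1, 2 or 3 (limma adjusted p = 0.102, 0.0504 and 0.0951), and with TPM or without a trend (limma adjusted p = 0.0946 and 0.0532, ranging from 0.0203 to 0.110 across settings). POLR1B, the second largest subunit, varied within both groups. It was at 12.11, 11.24 and 17.66 FPKM in medium and 14.36, 9.04 and 8.86 FPKM with SQ0048, so the groups overlapped.

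Of the 8 RNA polymerase III genes, 3 fell (37.5%, against 15.8% of all features tested), none rose (against 8.59%) and 5 did neither in limma. In that test POLR3A, POLR3B, POLR3E and POLR3G were the 4 with an unadjusted p under 0.05. POLR3B, the second largest subunit, was among the most even of all members. It was at 2.85, 2.92 and 3.0 FPKM in medium and 1.82, 1.79 and 1.65 FPKM with SQ0048, and it fell by 0.71 on the log2 scale (SE 0.09, limma adjusted p = 0.0069). POLR3A, the largest subunit and the partner of POLR3B in the active center, stood at 4.78, 4.72 and 5.10 FPKM in medium and 3.77, 4.06 and 3.77 FPKM with SQ0048. The groups were apart, but the fall was smaller, by 0.32 on the log2 scale (limma adjusted p = 0.0314). The call of POLR3A was lost on leaving out control 1, 2 or 3 or treated 1 or 3 (limma adjusted p = 0.0824, 0.0670, 0.0894, 0.0998 and 0.0975), and with size factors, quantile normalization or no filter (limma adjusted p = 0.0606, 0.0843 and 0.0550, ranging from 0.0220 to 0.112 across settings).

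POLR3G, a subunit found mostly in proliferating and undifferentiated cells, was at 2.92, 3.64 and 3.85 FPKM in medium and 2.27, 2.29 and 1.98 FPKM with SQ0048. It fell by 0.64 on the log2 scale (SE 0.14, limma adjusted p = 0.0240), although control replicate 1 lay nearer to the treated libraries than the other controls. The call was lost on leaving out control 2 or 3 or treated 1 or 3 (limma adjusted p = 0.0716, 0.0739, 0.0677 and 0.0770, ranging from 0.0163 to 0.0874 across settings). POLR3G overlaps MBLAC2 in the annotation, and MBLAC2 was at 0.13 to 1.03 FPKM throughout.

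The other polymerase III subunits named here did not pass the test. POLR3E, a subunit that takes part in initiation, stood at 8.0, 8.70 and 8.82 FPKM in medium and 7.02, 6.02 and 7.25 FPKM with SQ0048. These groups did not overlap either, at an adjusted p of 0.0560 from limma, and it was called with TPM (limma adjusted p = 0.0291) and when only features averaging 5 FPKM or more were kept (limma adjusted p = 0.0491, ranging from 0.0291 to 0.169 across settings). POLR3C, of the same initiation subcomplex as POLR3F and POLR3G, was at 8.73, 8.63 and 7.56 FPKM in medium and 9.0, 9.03 and 8.56 FPKM with SQ0048 (limma adjusted p = 0.431), with treated replicate 3 below control replicates 1 and 2. POLR3C overlaps PIAS3 and RNF115 in the annotation, neither of which passed the test.

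POLR3D and POLR3F overlapped between the groups. POLR3D, which forms a subcomplex with POLR3E, was at 5.04 to 6.76 FPKM in medium and 5.16 to 6.30 FPKM with SQ0048. POLR3F, an initiation subunit, was at 3.98 to 6.67 FPKM in medium and 2.93 to 5.51 FPKM with SQ0048.

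Among the 7 snoRNP genes, 2 fell (28.6%, against 15.8% of all features tested) and none rose (against 8.59%) in limma. NOP58, GAR1 and FBL were the 3 with an unadjusted p under 0.05 in that test. In both main kinds of snoRNP 1 core protein gene fell, while the gene of the enzyme was not called. Box C/D particles methylate ribosomal RNA, with NOP58 as a core scaffold and FBL, fibrillarin, as the methyltransferase. NOP58 stood at 35.32, 35.26 and 41.26 FPKM in medium and 19.59, 23.70 and 20.66 FPKM with SQ0048. Every treated library was well below every control, with a log2 fold change of -0.80 (SE 0.10, limma adjusted p = 0.0064). FBL stood at 95.16, 99.62 and 96.39 FPKM in medium and 107.58, 101.47 and 111.08 FPKM with SQ0048. Its groups did not overlap, with the treated libraries above, but it did not pass the test (log2 fold change of 0.14, limma adjusted p = 0.119).

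Box H/ACA particles convert uridine to pseudouridine, with DKC1, dyskerin, as the enzyme and GAR1 and NOP10 bound to it. GAR1 was at 12.18, 11.75 and 10.76 FPKM in medium and 6.22, 7.67 and 7.98 FPKM with SQ0048. It fell by 0.66 on the log2 scale (SE 0.12, limma adjusted p = 0.0134), with no overlap of the groups. The call was lost without control replicate 1 (limma adjusted p = 0.0502, ranging from 0.0101 to 0.0666 across settings). DKC1 was at 27.07, 26.68 and 37.25 FPKM in medium and 27.05, 23.80 and 26.36 FPKM with SQ0048, where control replicate 3 stood apart and the groups overlapped. NOP10 was at 12.23 to 16.40 FPKM in medium and 13.18 to 14.20 FPKM with SQ0048.

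The remaining 2 genes of this set also overlapped between the groups. NOLC1, a nucleolar phosphoprotein that chaperones snoRNPs, was at 28.77 to 30.32 FPKM in medium and 24.78 to 29.17 FPKM with SQ0048. RRP9, the protein bound to the U3 snoRNA, was at 11.82 to 12.96 FPKM in medium and 11.33 to 13.13 FPKM with SQ0048. It overlaps PARP3 in the annotation, which fell by 0.40 on the log2 scale (limma adjusted p = 0.0316).

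For the small subunit processome and the maturation of the small subunit, 18 rows were tested. Of these rows, 5 fell (27.8%, against 15.8% of all features tested) and 2 rose (11.1%, against 8.59%). UTP20, a very large scaffold of the processome, changed most among them. It was at 6.5, 6.09 and 7.30 FPKM in medium and 3.05, 3.50 and 3.22 FPKM with SQ0048, a fold change of 2.0 downward (log2 fold change of -1.0, SE 0.10, limma adjusted p = 0.0036). NOL10, the relative of a yeast processome factor, was at 11.52, 12.56 and 11.21 FPKM in medium and 7.23, 8.61 and 7.57 FPKM with SQ0048, and fell by 0.59 on the log2 scale (limma adjusted p = 0.0099). NOL11, a subunit of the arm of the processome that also acts in polymerase I transcription, was at 14.96, 13.74 and 13.56 FPKM in medium and 10.47, 9.78 and 9.40 FPKM with SQ0048. It fell by 0.51 on the log2 scale (SE 0.07, limma adjusted p = 0.0083). In each of these 3 genes the groups lay clearly apart.

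UTP18 and NOL6, further processome subunits, fell less. UTP18 was at 12.80, 11.72 and 13.32 FPKM in medium and 9.54, 8.58 and 10.77 FPKM with SQ0048, lower by 0.39 on the log2 scale (limma adjusted p = 0.0452). Its call was lost on leaving out control 1, 2 or 3 or treated 1 or 2 (limma adjusted p = 0.119, 0.0658, 0.123, 0.12 and 0.0822), with size factors, after quantile normalization, with no filter and without a trend (limma adjusted p = 0.103, 0.114, 0.0578 and 0.0596, ranging from 0.0312 to 0.123 across settings). NOL6 was at 5.19, 5.53 and 5.47 FPKM in medium and 4.18, 3.91 and 4.45 FPKM with SQ0048, lower by 0.36 on the log2 scale (limma adjusted p = 0.0263). Its call was lost on leaving out control 1, 2 or 3 or treated 1 or 2 (limma adjusted p = 0.0631, 0.0770, 0.0785, 0.0814 and 0.0547), with size factors and after quantile normalization (limma adjusted p = 0.0638 and 0.119, ranging from 0.0151 to 0.119 across settings). The groups of both genes did not overlap.

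NOP9 and UTP4 rose. NOP9, an RNA-binding factor of the small subunit precursor in yeast, was at 8.08, 8.58 and 7.99 FPKM in medium and 11.53, 10.62 and 10.14 FPKM with SQ0048. The log2 fold change was 0.38 (SE 0.07, limma adjusted p = 0.0183), and the call was lost on leaving out control 1 or 3 or treated 1 (limma adjusted p = 0.0626, 0.0589 and 0.0570, ranging from 0.0106 to 0.0717 across settings). CIDEB, which overlaps NOP9 in the annotation, did not exceed 0.11 FPKM in any library. UTP4, known as cirhin, belongs to the same arm of the processome as NOL11 and UTP15. It stood at 22.10, 23.00 and 21.41 FPKM in medium and 26.73, 25.85 and 27.41 FPKM with SQ0048, above every control in each treated library (log2 fold change of 0.27, SE 0.06, limma adjusted p = 0.0226). The call of UTP4 was lost on leaving out control 1 or 3 or treated 1 or 3 (limma adjusted p = 0.0719, 0.0614, 0.0714 and 0.0695) and with TPM (limma adjusted p = 0.0609, ranging from 0.0155 to 0.0961 across settings).

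Genes of one arm thus moved in different directions, and UTP15 of that arm was uneven. UTP15 was at 3.43, 7.57 and 3.78 FPKM in medium and 3.06, 3.30 and 2.61 FPKM with SQ0048, where control replicate 2 stood far above the others (limma adjusted p = 0.209). NOL7, a small processome protein, was at 29.11, 30.96 and 30.48 FPKM in medium and 24.40, 26.24 and 18.13 FPKM with SQ0048. Its groups did not overlap, but treated replicate 3 lay apart from the other treated libraries (limma adjusted p = 0.0928). UTP6 was at 19.81 to 22.71 FPKM in medium and 15.14 to 20.13 FPKM with SQ0048, and NAT10, which acetylates cytidines of ribosomal RNA, at 6.25 to 7.51 FPKM and 5.53 to 6.63 FPKM. Both genes overlapped between the groups. UTP6 was not called (limma adjusted p = 0.125), but was without treated replicate 2 (limma adjusted p = 0.0355, ranging from 0.0355 to 0.274 across settings). Among the rows of this set that were not called, NOL7 and UTP6 had an unadjusted p under 0.05 in limma.

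UTP11, RRP12 and the joined row of NOP14 and MFSD10 overlapped as well. UTP11 was at 12.44 to 14.05 FPKM in medium and 11.05 to 13.86 FPKM with SQ0048. RRP12, which takes part in the export of ribosomal subunits in yeast, was at 10.11 to 11.02 FPKM in medium and 9.58 to 10.39 FPKM with SQ0048. The row of NOP14 and MFSD10 was at 11.46 to 13.40 FPKM in medium and 11.06 to 12.43 FPKM with SQ0048.

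Some rows of this set changed within a group more than between groups. UTP23 was at 5.32, 5.76 and 1.04 FPKM in medium and 3.83, 3.94 and 0.99 FPKM with SQ0048, so the third replicate was low in both groups. UTP3, a processome factor, was listed at 0 in all controls, and with SQ0048 at 2.63, 14.64 and 0.00 FPKM. A value of 0 can be a failed estimate, so no fold change is given. UTP3 did not pass the test (limma adjusted p = 0.166), but did without treated replicate 3 (limma adjusted p = 0.0225). BYSL, bystin, a factor of late small subunit maturation, has 2 rows. One was at 13.41, 14.61 and 7.23 FPKM in medium and 7.85, 13.86 and 13.29 FPKM with SQ0048, and the other at 1.81, 0.00 and 9.50 FPKM in medium and 2.39, 0.00 and 0.00 FPKM with SQ0048. In control replicate 3 a low value in one row (7.23 FPKM) stood beside a high value in the other (9.50 FPKM). In treated replicate 1 the first row was also low (7.85 FPKM), but the other was at only 2.39 FPKM. The sum of both BYSL rows was 15.22, 14.61 and 16.73 FPKM in medium and 10.24, 13.86 and 13.29 FPKM with SQ0048, and it was not tested.

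**Figure D2:**
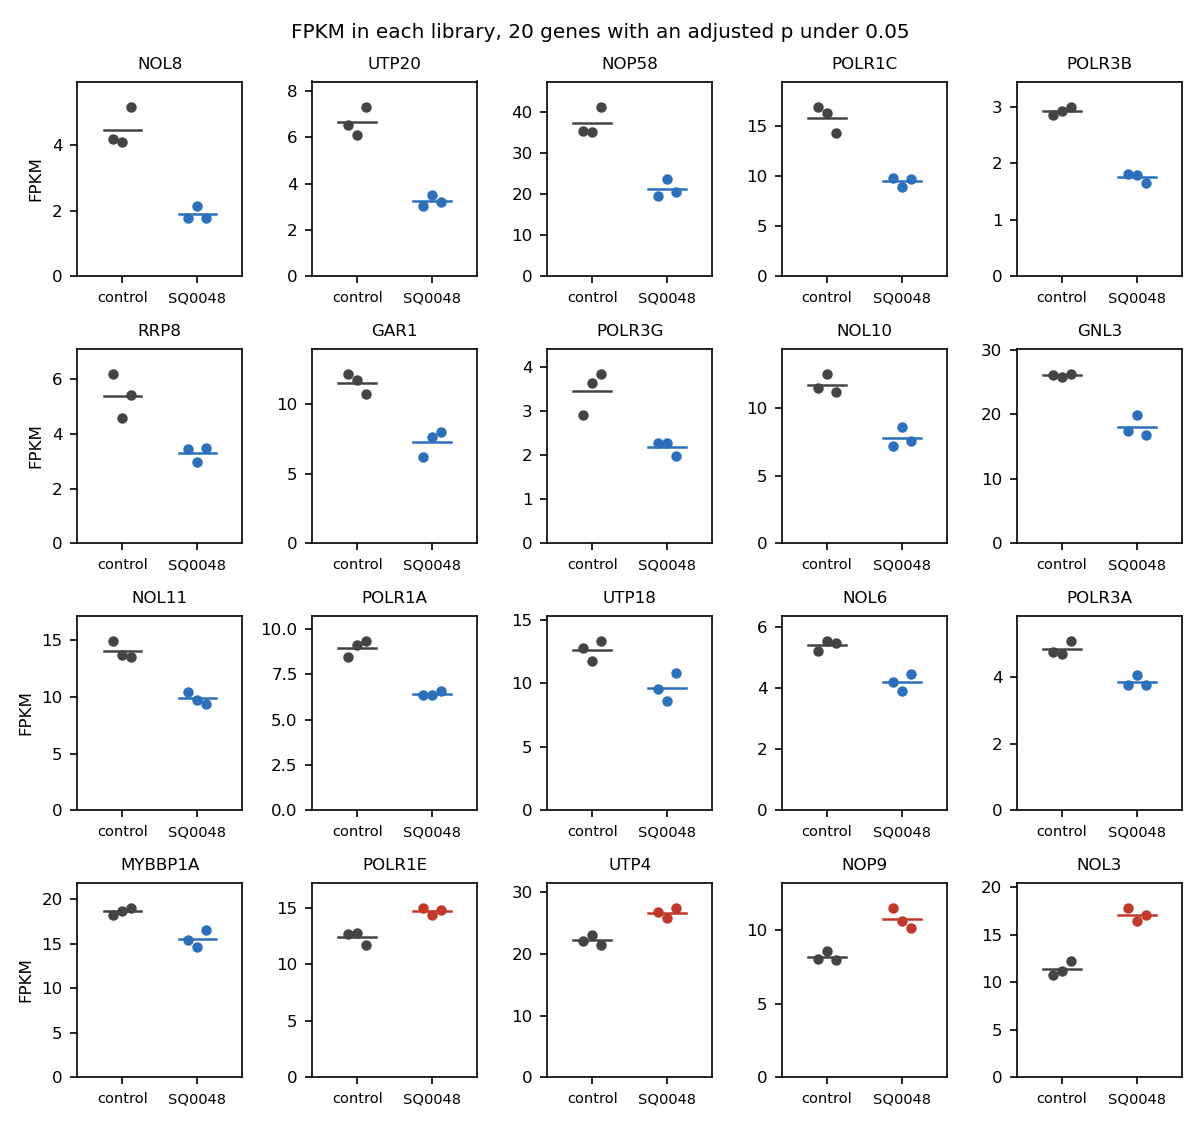
FPKM (y axis, from 0) in each of the 3 control and 3 treated libraries (x axis) for the 20 rows with an adjusted p under 0.05, ordered from the most lowered (NOL8) to the most raised (NOL3), with lines at the group means. In each panel the treated libraries lie on one side of all control libraries, as in UTP20 (6.09 to 7.30 against 3.05 to 3.50 FPKM).

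Of 11 genes for the large subunit, 3 fell (27.3%, against 15.8% of all features tested), none rose (against 8.59%) and 8 did neither in limma. Including those that fell, NOL8, RRP8, GNL3, NOL9 and NOP16 were the 5 with an unadjusted p under 0.05. NOL8 showed the largest fall of any member above 0 in every library. This nucleolar RNA-binding protein was at 4.17, 4.07 and 5.15 FPKM in medium and 1.76, 2.14 and 1.76 FPKM with SQ0048. The highest treated value was well below the lowest control value, and the log2 fold change was -1.20 (SE 0.14, limma adjusted p = 0.0051). GNL3, nucleostemin, a nucleolar GTPase of proliferating cells, was at 26.08, 25.86 and 26.26 FPKM in medium and 17.44, 19.97 and 16.76 FPKM with SQ0048. The control values were almost identical, and the log2 fold change was -0.53 (SE 0.08, limma adjusted p = 0.0089).

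RRP8, a methyltransferase that also takes part in silencing ribosomal DNA, was at 6.20, 4.60 and 5.42 FPKM in medium and 3.46, 2.99 and 3.48 FPKM with SQ0048. It fell by 0.68 on the log2 scale (SE 0.13, limma adjusted p = 0.0190), with no overlap. The call was lost on leaving out control 1 or 3 or treated 1 or 3 (limma adjusted p = 0.0523, 0.0636, 0.0570 and 0.0536, ranging from 0.0151 to 0.0636 across settings). NOL9, a kinase that acts on the ends of large subunit RNA precursors, was at 8.07, 7.31 and 7.40 FPKM in medium and 6.72, 6.12 and 6.16 FPKM with SQ0048. It was below every control in each treated library but passed the test only with TPM (limma adjusted p = 0.0605, and 0.0284 with TPM, ranging from 0.0284 to 0.273 across settings).

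The PeBoW complex, PES1, BOP1 and WDR12, is needed to process the RNAs of the large subunit, and none of its genes was called in limma or had an unadjusted p under 0.05. PES1, pescadillo, stood at 41.92, 43.16 and 43.39 FPKM in medium and 42.48, 41.48 and 44.28 FPKM with SQ0048, a log2 fold change of 0.00 (SE 0.05, limma adjusted p = 0.974). BOP1 was at 11.32 to 11.99 FPKM in medium and 10.84 to 11.50 FPKM with SQ0048, and WDR12 at 23.11 to 28.44 FPKM and 19.87 to 26.85 FPKM. All 3 overlapped between the groups. BOP1 overlaps SCX in the annotation, which did not exceed 0.02 FPKM.

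NOP16 was the member of this set with the highest treated level relative to control. It was at 21.84, 18.54 and 20.42 FPKM in medium and 38.43, 24.51 and 43.49 FPKM with SQ0048, so each treated library was above every control but treated replicate 2 was close to them. Its log2 fold change was 0.77 (SE 0.22, limma adjusted p = 0.0566). It was called without treated replicate 2 (limma adjusted p = 0.0093), with size factors (limma adjusted p = 0.0493) and when only features averaging 5 FPKM or more were kept (limma adjusted p = 0.0499, ranging from 0.0093 to 0.156 across settings). NOP53, the most abundant member, which guides the exosome to large subunit precursors, was at 104.57, 128.28 and 119.35 FPKM in medium and 127.80, 123.75 and 125.13 FPKM with SQ0048 (limma adjusted p = 0.415). RRP1 and RRP1B, related nucleolar proteins, were at 18.34 to 18.99 and 9.92 to 10.29 FPKM in medium and 17.13 to 19.30 and 9.50 to 10.01 FPKM with SQ0048. The groups overlapped in these 3 genes.

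MYBBP1A, a nucleolar protein that binds the polymerase I machinery and represses ribosomal DNA transcription, was at 18.28, 18.76 and 19.05 FPKM in medium and 15.41, 14.65 and 16.54 FPKM with SQ0048. It fell by 0.27 on the log2 scale (SE 0.07, limma adjusted p = 0.0351), without overlap. The call was lost on leaving out control 1, 2 or 3 or treated 1 or 2 (limma adjusted p = 0.0817, 0.0872, 0.0925, 0.0998 and 0.0621), with size factors, after quantile normalization and without a trend (limma adjusted p = 0.119, 0.0811 and 0.0553, ranging from 0.0190 to 0.119 across settings). MYBBP1A overlaps SPNS2 in the annotation, which was not analyzed here.

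The name rule also took NOL3 and NOL4L, which are not ribosome factors. NOL3, also called ARC, is an inhibitor of apoptosis with a caspase recruitment domain. It was at 10.74, 11.20 and 12.29 FPKM in medium and 17.84, 16.48 and 17.08 FPKM with SQ0048, a log2 fold change of 0.58 (SE 0.07, limma adjusted p = 0.0063), and it was the only higher member whose call was kept under every alternative. NOL4L, whose function is poorly known, was at 3.40, 3.30 and 1.77 FPKM in medium and 4.92, 4.31 and 5.57 FPKM with SQ0048 (limma adjusted p = 0.0769), with no overlap. Without these 2 genes, 16 rows of 50 were lower and 3 were higher, or 32% and 6%.

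Without regard to the test, every treated library was below every control library in 20 of the 52 rows (38.5%, against 28.3% of all features tested), and above in 7 rows (13.5%, against 17.4%). The 4 lower rows of this kind that were not called were POLR3E, UTP15, NOL7 and NOL9, and the 3 higher ones were FBL, NOP16 and NOL4L. Together the 52 rows took 0.235% to 0.25% of the FPKM in control libraries and 0.213% to 0.216% in treated libraries. Their own sum was 824 to 865 FPKM in control and 798 to 805 FPKM in treated libraries. The total FPKM of a library was higher in the treated group, at 372034 to 378772 against 343933 to 361055. The median log2 ratio of the members to their control mean was -0.19, -0.16 and -0.24 in the treated libraries, against -0.07, -0.05 and -0.11 for all features tested. Treated replicate 2 had the median nearest to control in both.

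The medians of the role sets differed. The median log2 fold change was -0.35 for the 5 polymerase I rows, -0.37 for the 8 polymerase III genes, -0.33 for the 18 small subunit rows, -0.12 for the 7 snoRNP genes and -0.07 for the 11 large subunit genes. Within the treated group, the polymerase sets were lowest in replicate 2 (medians of -0.49 and -0.53), whereas the small subunit set was nearest to control there (-0.15). Differences between these sets were not tested.

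**Figure D3:**
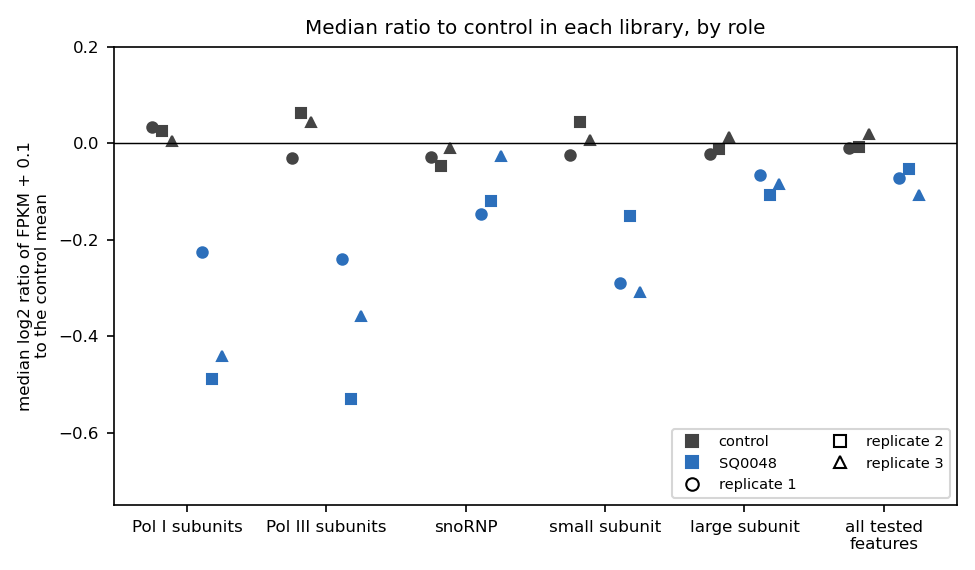
Median log2 ratio of FPKM + 0.1 to the control mean (y axis) in each library, for the members of 5 role sets and for all 13144 tested features (x axis). The treated libraries lie below 0 in every set, down to -0.53 for polymerase III subunits in replicate 2, and all tested features lie at -0.05 to -0.11.

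Other genes of the pathway, in 7 lists chosen by role, were measured in the same libraries. Of 140 tested, 25 fell (17.9%, against 15.8% of all features) and 5 rose (3.57%, against 8.59%), with a median log2 fold change of -0.19. Their share of lower genes was thus near that of all features. The lists of small subunit factors (7 of 32), large subunit factors (9 of 45) and polymerase III factors (4 of 18) held most of the lower genes. In the list of the exosome and RNase MRP/P 4 of 22 fell, in that of other snoRNP proteins 1 of 10 fell, and no gene fell among 9 polymerase I genes or 4 shared subunits in limma. At an unadjusted p under 0.05, TAF1B and TTF1 were lower among the former and no shared subunit passed.

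**Figure D4:**
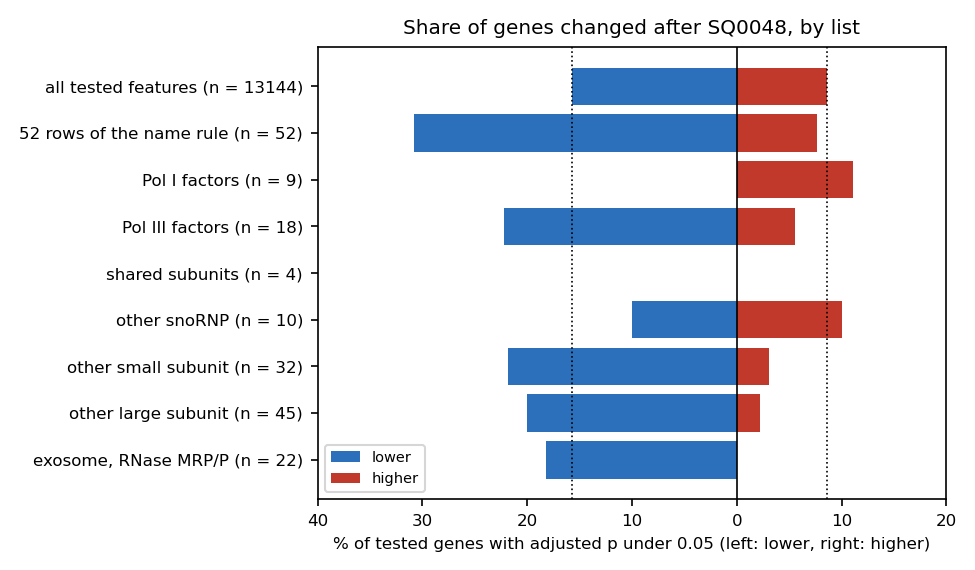
Percent of tested genes (x axis) that were lower (left) or higher (right) at an adjusted p under 0.05 in all features, in the 52 rows described here and in 7 lists of other pathway genes (y axis), with dotted lines at the shares of all features. The 52 rows reach 30.8% lower, against 15.8% of all features, while the lists of the other genes lie between 0% and 22.2%.

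The transcription factors of polymerase III held the largest fall of these lists. BDP1, a part of the initiation factor TFIIIB, was at 3.69, 3.72 and 4.84 FPKM in medium and 1.21, 1.5 and 1.18 FPKM with SQ0048, a log2 fold change of -1.58 (SE 0.16, limma adjusted p = 0.0037). GTF3C4, a subunit of TFIIIC, was at 4.60 to 4.74 FPKM in medium and 2.83 to 2.92 FPKM with SQ0048, and SSB, the La protein that binds new polymerase III transcripts, at 28.70 to 32.00 and 17.07 to 19.48 FPKM. They fell by 0.68 and 0.72 on the log2 scale (limma adjusted p = 0.0038 and 0.0042), and GTF3C2, another TFIIIC subunit, fell by 0.44 (limma adjusted p = 0.0068). BRF2, the TFIIIB subunit used at promoters such as that of U6, rose from 1.61 to 1.8 FPKM in medium to 2.62 to 3.67 FPKM with SQ0048 (log2 fold change of 0.92, limma adjusted p = 0.0135). The call of BRF2 was lost without treated replicate 3 (limma adjusted p = 0.0505, ranging from 0.0105 to 0.0552 across settings). MAF1, the repressor of polymerase III, was at 40.66, 47.34 and 42.69 FPKM in medium and 47.53, 42.50 and 43.01 FPKM with SQ0048, with overlap of the groups (limma adjusted p = 0.839).

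The initiation factors of polymerase I were not called. UBTF, which opens the ribosomal DNA for transcription, was at 9.33 to 10.72 FPKM in medium and 8.75 to 9.96 FPKM with SQ0048, and RRN3, which recruits polymerase I to its promoter, at 3.02 to 5.53 and 5.52 to 5.75 FPKM. Their adjusted p was 0.328 and 0.345 from limma. ZNRD1, the older symbol of the polymerase I subunit POLR1H, was the 1 gene of this list that rose. It was at 9.23, 9.21 and 8.55 FPKM in medium and 12.40, 13.61 and 12.11 FPKM with SQ0048, a log2 fold change of 0.49 (SE 0.07, limma adjusted p = 0.0091). Like POLR1E, this polymerase I subunit was higher in each treated library, whereas POLR1A and POLR1C were lower. CD3EAP and TWISTNB of the same list were not called (limma adjusted p = 0.965 and 0.376). CD3EAP was at 1.36 to 3.63 FPKM in medium and 1.03 to 14.94 FPKM with SQ0048. TWISTNB was at 1.86 to 3.24 FPKM and 2.31 to 4.84 FPKM.

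Among the other processome genes, WDR43 fell most. WDR43, of the same arm as UTP4 and NOL11, was at 20.04, 21.88 and 22.06 FPKM in medium and 8.19, 9.99 and 8.36 FPKM with SQ0048, a log2 fold change of -1.26 (SE 0.10, limma adjusted p = 0.0020). HEATR1, of that arm too, and BMS1, a processome GTPase, fell by 0.53 and 0.49 on the log2 scale (limma adjusted p = 0.0101 and 0.0095). NOB1, the nuclease that makes the last cut in small subunit RNA, was the 1 gene of this list that rose, with control libraries at 24.69, 23.76 and 33.10 FPKM and treated libraries at 37.15 to 38.41 FPKM (limma adjusted p = 0.0483). The call of NOB1 was lost on leaving out control 1 or 2 or treated 1, 2 or 3 (limma adjusted p = 0.130, 0.112, 0.124, 0.0969 and 0.127), with TPM, after quantile normalization, with no filter and without a trend (limma adjusted p = 0.102, 0.0575, 0.0618 and 0.0657, ranging from 0.0098 to 0.130 across settings).

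In the list of large subunit factors, MDN1, a giant ATPase that remodels the precursor, was at 2.23 to 2.69 FPKM in medium and 1.37 to 1.39 FPKM with SQ0048, and fell by 0.75 on the log2 scale (limma adjusted p = 0.0101). NIP7, a small RNA-binding factor, fell by 0.72 (limma adjusted p = 0.0134), and lost its call without treated replicate 3 (limma adjusted p = 0.0503, ranging from 0.0102 to 0.0538 across settings). LSG1, a cytoplasmic GTPase of the last step of maturation, was the 1 gene that rose, from 11.26 to 12.60 FPKM in medium to 16.09 to 17.75 FPKM with SQ0048 (log2 fold change of 0.50, limma adjusted p = 0.0083).

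RNA processing enzymes and snoRNP assembly factors changed as well. EXOSC10, the nuclear nuclease of the exosome, RPP30, of RNase MRP and P, and XRN2, a 5′ exonuclease, fell by 0.52, 0.43 and 0.36 on the log2 scale (limma adjusted p = 0.0055, 0.0090 and 0.0170). DIS3, the other exosome nuclease, fell by 0.75 (limma adjusted p = 0.0220). The call of XRN2 was lost on leaving out control 1 or 3 or treated 1 or 3 (limma adjusted p = 0.0585, 0.0554, 0.0606 and 0.0575, ranging from 0.0138 to 0.0826 across settings), and so was that of DIS3 (limma adjusted p = 0.0691, 0.0716, 0.0730 and 0.0588, ranging from 0.0179 to 0.0905 across settings). RUVBL2, an ATPase of the snoRNP assembly complex, rose by 0.36 and ZNHIT3, an assembly factor of box C/D particles, fell by 0.34 (limma adjusted p = 0.0122 and 0.0151). The call of ZNHIT3 was lost without control replicate 1 and after quantile normalization (limma adjusted p = 0.0547 and 0.0608, ranging from 0.0096 to 0.0705 across settings).

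MYC itself was abundant and fell. It stood at 86.71, 97.80 and 89.03 FPKM in medium and 63.50, 53.22 and 57.39 FPKM with SQ0048, a log2 fold change of -0.65 (SE 0.09, limma adjusted p = 0.0068). MXD1, which competes with MYC for its partner MAX, was at 1.73, 2.06 and 2.01 FPKM in medium and 5.19, 5.87 and 5.37 FPKM with SQ0048, a log2 fold change of 1.46 (SE 0.10, limma adjusted p = 0.0017). RPS6KB1, the S6 kinase below mTOR, fell by 0.62 on the log2 scale (limma adjusted p = 0.0112). Of the 10 genes tested in this list of regulators, 2 fell (20%, against 15.8% of all features tested) and 1 rose (10%, against 8.59%). Both shares were thus near those of all features. Whether these regulators bear on the values of the members was not tested. BRF2, GTF3C2, NOB1 and DIS3 were named after their values were seen.

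Some host genes of small nucleolar RNAs were among the members by the annotation of RefSeq. NOP58 holds 4 annotated snoRNA genes, GNL3 holds 3, and NOP53 and POLR1A hold 1 each. Of these hosts, NOP58, GNL3 and the main row of POLR1A fell and NOP53 was not called. The libraries were made from poly(A) RNA, and the levels of the snoRNAs were not analyzed here.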

How the data were processed

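RNA from 6 samples of BVECs, 3 treated and 3 control, was analyzed, with groups and replicate numbers taken from the sample titles. The authors deposited FPKM values, rounded to 2 decimals, 1 per feature and library. Reads had been trimmed with Cutadapt, aligned with Hisat 2.0 and quantified with Cufflinks according to the methods of the paper, while StringTie 1.3.0, HISAT2 2.0, Bowtie 0.12.2 and build ARS-UCD1.2 stand in the submitters' processing notes. Since FPKM are not counts, edgeR, the test of the study, was not used. Tables were handled in pandas 2.3.3 under Python 3.11.15. Tests were two-sided and run with limma 3.58.1 in R 4.3.3 (trend, condition as the only term, Benjamini-Hochberg adjustment over 13144 features) on log2(FPKM + 0.1). Fold changes of low genes are understated on that scale. The procedure was checked on simulated data.

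The members and the lists were chosen with earlier results of these data known. Genes named by rule are all called members, members past a fold of 2 at an unadjusted p under 0.05, the 2 most abundant of each role, members listed at 0 in some library, MYC, UBTF, RRN3 and MAF1, and up to 3 called genes of each pathway list with the smallest adjusted p. The other members and the cell type markers are given by their values. Where a symbol of a pathway list has several rows, the one with the highest mean was used. All 50 member symbols were matched in RefSeq (ARS-UCD2.0), which served only to find overlapping genes, 8 of them with a coding gene. Alternatives were pseudocounts of 1 and 0.01, no filter, a mean of at least 5 FPKM, TPM, size factors, quantile normalization, no trend, a replicate block and leaving out each library. One member that was not called is counted but not reported here by name. Sequences and coordinates are not given, since no genome of the build was used here. Columns of values per sample left unused were 0. Figures were drawn with matplotlib 3.10.9.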

Additional observations from a re-analysis of the deposited data

How the results depend on the processing

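The count of 16 lower members was 10 under the filter of 5 FPKM, where 37 members were tested, and 12 to 18 under the other pseudocounts, scalings and filters. Those 12 to 18 were 23.1% to 34.6% of the members, against 10.4% to 20.1% of all features in these settings. The count of 4 higher members was 2 with TPM and 3 to 5 otherwise. Higher members were 3.85% to 13.5%, against 5.74% to 12.2% of all features. Leaving out 1 library gave 10 to 14 lower and 1 to 4 higher members. These were 19.2% to 26.9% lower, against 8.46% to 15.3% of all features, and 1.92% to 7.69% higher, against 4.18% to 7.26%. The share of lower calls among all called features was 64.7%, but 51.8% with size factors, 54.5% on quantiles and 77.7% with TPM. Of 837 values of 57 named genes under the alternatives, 717 kept direction and side of the threshold, 105 lost and 7 gained the call, and 8 changed sign. Those 8 belong to 2 genes near 0 that were not called. PES1 was at -0.0029, but at 0.0753 with size factors. Leaving out 1 library put PES1 between -0.0286 and 0.0184, at 0.0028 and 0.0066 lacking control 2 or 3 and at 0.0013 and 0.0184 lacking treated 1 or 2. MAF1 was at 0.0267, but at -0.0633 with TPM, and between -0.0241 and 0.088 on leaving out 1 library, at -0.0214 lacking control 1 and at -0.0241 lacking treated 1. The cause was not tested.

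The sources used here do not say whether replicate numbers pair the samples. The deviations of same-numbered libraries from their group means correlated at -0.012, 0.001 and 0.010, which cannot show how the samples were set up. A fit with the replicate number as a block gave 7 lower and 1 higher member, with 847 calls among all features in place of 3201. The lower share was 13.5% of the members against 4.01% of all features, and the higher share 1.92% against 2.43%. The losses of calls given for single genes leave this block aside. No read counts were at hand, so the counting error of low values, such as those of the second row of POLR1A, was not computed.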

Other observations

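The annotations in the deposited table give other views of the same process, which were taken after the members' values had been seen. Of 67 tested features under the KEGG entry for ribosome biogenesis in eukaryotes, 19 were lower (28.4%) and 5 were higher (7.46%), and 12 of these features are members. Among the 55 others, 14 were lower (25.5%) and 4 were higher (7.27%). Of 69 tested features under the GO term rRNA processing, 8 were lower (11.6%) and 2 were higher (2.90%), with 15 members among the features annotated. Of 555 tested features annotated to the nucleolus, 115 were lower (20.7%) and 46 were higher (8.29%). In the KEGG entry for RNA polymerase, 2 of the 16 tested features outside the members were lower and 2 were higher (12.5% each). The share of lower genes thus varied from below to above the 15.8% of all features with the way the pathway was listed.

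Of the 12 members with a control mean of at least 20 FPKM, 2 were lower, NOP58 and GNL3, and 1 was higher, UTP4. Among all features tested, at any level, 15.8% were lower and 8.59% were higher. Over the 50 rows above 0 in every library, the Pearson correlation across genes between the log2 control level and the log2 fold change was 0.20. The genes share the same libraries and the control values enter both measures, so this is a description only.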
